A study of Homo sapiens with 5 samples.

Results

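The 10 genes described here carry the interleukin 2 (IL2) signal in NK92MI cells: the receptor chain genes IL2RA, IL2RB and IL2RG, the kinase genes JAK1 and JAK3, the transcription factor genes STAT5A and STAT5B, and the feedback inhibitor genes CISH, SOCS1 and SOCS2. They were chosen by name, as the rows of the deposited count table that carry these symbols. All 10 were found among 57221 rows, each on a single row, and all 10 passed the filter on low counts that left 13075 tested genes. NK92MI, a line of human natural killer (NK) lymphocytes, carries an introduced IL2 gene and so needs no IL2 in its medium. RNA was sequenced from cells cultured for 48 h with 10 µM UNC1999, an inhibitor of the histone H3 lysine 27 methyltransferases EZH2 and EZH1 (3 libraries, UNC1999), or with its solvent DMSO (2 libraries). The comparison asks which transcripts differ between treated and solvent-treated cells. All libraries come from this single line. The labels do not say whether they are separate cultures, so a p-value here reflects spread among these samples alone, and that spread may be technical.

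IL2 binds a receptor built of an alpha chain (IL2RA, CD25), which raises affinity, a beta chain (IL2RB, CD122) and the common gamma chain (IL2RG, CD132), which several other cytokine receptors share. JAK1 sits on the beta chain and JAK3 on the gamma chain, and the pair phosphorylate the receptor and STAT5A and STAT5B, which enter the nucleus and switch on target genes. Among those targets are CISH and SOCS proteins, which bind the activated receptor or the kinases and damp the signal. In NK cells this pathway drives growth, survival and the making of cytotoxic granules.

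Library totals lay between 8442908 and 8748106 counts, and log2 CPM (counts scaled to library size with TMM normalization factors) correlated at 0.990 to 0.993 between UNC1999 libraries and at 0.992 between the DMSO libraries. UNC1999 replicate 2 stood apart, with a chi-square per degree of freedom of 8.27 and 9.69 against the other UNC1999 libraries. The latter gave 1.88 against each other. By this measure replicate 2 was also the UNC1999 library nearest to DMSO, at 17.1 and 14.7 against DMSO replicates 1 and 2. UNC1999 replicates 1 and 3 gave 22.8 to 26.2 against the DMSO libraries. Over all tested genes, 2057 were higher and 2546 lower in UNC1999 (edgeR quasi-likelihood test, adjusted p under 0.05), together 35.2% of the genes. The split was 2949 higher and 1742 lower without normalization factors, which moved the median log2 fold change of all genes by 0.10, and 2625 and 2021 with upper-quartile factors. The cell line carried NK markers, with 11 of 13 at 1 CPM or more in every library and NCR3 listed at 0. The summed level of the 13 markers was 5529 to 5890 CPM in UNC1999 and 5742 to 6006 CPM in DMSO. Of 7 T cell markers, CD3D, CD3G, CD4 and CD8B were listed at 0 in every library, while CD3E, which NK cells also make, and TRAC were present. The 5 B cell markers summed to 17.3 to 24.5 CPM in UNC1999 and 23.8 to 25.6 CPM in DMSO, nearly all of it PAX5, with 2 markers listed at 0 in every library. The 5 myeloid markers summed to 33.6 to 42.1 CPM in UNC1999 and 41.0 to 45.9 CPM in DMSO, mostly ITGAM, which NK cells also make, with LYZ listed at 0. The part of such cells in the results was not tested.

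The receptor, kinase, STAT5 and feedback genes had small log2 fold changes after UNC1999, and how many were called depended on the fit. Of the 10, 1 was called, against 35.2% of all tested genes called. With offsets that remove each library's trend by GC content and transcript length, 6 of the 10 were called, against 34.0% of all genes. All 6 were higher, and the median log2 fold change of the 10 was 0.21. Such offsets also take out any group difference that follows GC content or length, and how much of the trend came from UNC1999 was not tested. Of 4107 genes called without offsets and fitted again with them, 2440 kept both call and sign, while 5 were called with the other sign. Without offsets JAK3 rose, with a log2 fold change of 0.36, and the other 9 were not called and lay between -0.22 (STAT5B) and 0.16 (CISH). The median of the 10 was -0.03 and that of all tested genes -0.01. In 9 of the 10 genes the UNC1999 and DMSO libraries overlapped in CPM, and in 1 (STAT5B) they did not, against 54.6% of all tested genes whose groups did not overlap. The JAK3 call rested on single libraries, and the kinase paragraph gives its values without them. In bulk RNA, a change in the number of transcripts per cell and a change in the share of cells that make them cannot be told apart.

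**Figure D1:**
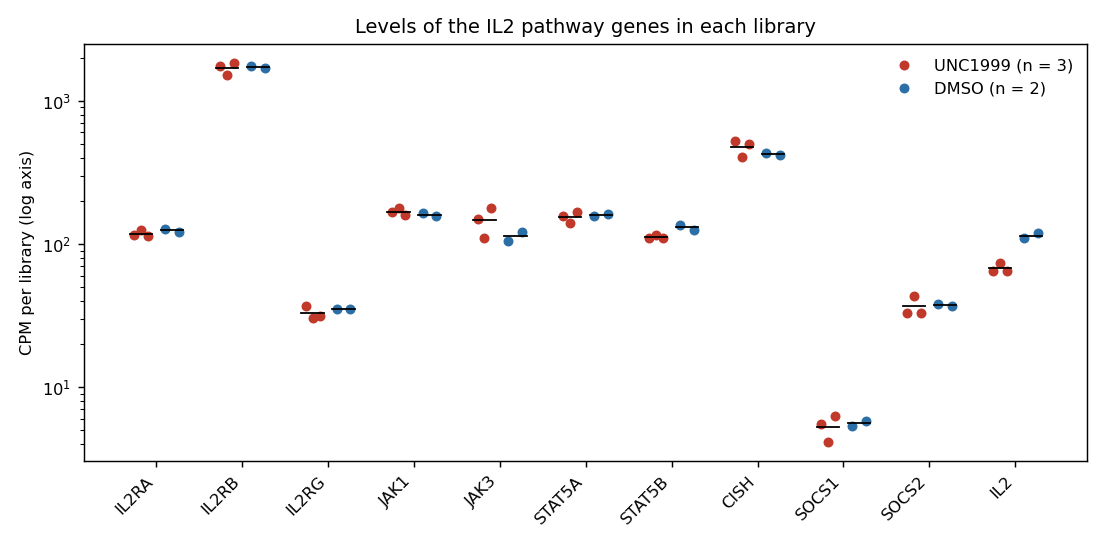
CPM of the 10 pathway genes and of IL2 in each library on a log axis, UNC1999 (red, n = 3) left of DMSO (blue, n = 2), with black bars at the group means. Most genes have overlapping groups. IL2 lies at 64.3 to 73.3 CPM in UNC1999 against 109.5 to 119.0 CPM in DMSO, and JAK3 spreads from 110.7 to 179.0 CPM within UNC1999.

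The levels of the 10 genes spanned more than 2 orders of magnitude when divided by transcript length. IL2RB was the highest, at a mean of 411.0 CPM per kilobase in UNC1999 and 417.7 in DMSO, above 99.0% and 98.9% of the tested genes with a known length. CISH followed with 218.9 CPM per kilobase in UNC1999 and 196.5 in DMSO. In UNC1999 the next genes were IL2RA (37.2), STAT5A (36.0), JAK1 (33.3), JAK3 (27.0), STAT5B (22.0) and IL2RG (21.5 CPM per kilobase). Each of these overlapped its neighbour in that order. In DMSO the order was IL2RA (39.2), STAT5A (36.9), JAK1 (31.7), STAT5B (25.6), IL2RG (23.0) and JAK3 (20.9 CPM per kilobase), with no overlap between neighbours over the 2 libraries. JAK3 thus ranked above STAT5B and IL2RG in the UNC1999 means and below both in DMSO. SOCS2 (9.80 CPM per kilobase in UNC1999 and 9.99 in DMSO) and SOCS1 (2.98 and 3.13) were the lowest in both groups.

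Transcripts of all 3 receptor chains were present in every library and none was called. IL2RA had 115.7, 124.9 and 114.1 CPM in the UNC1999 libraries and 128.0 and 120.9 CPM in DMSO. Its UNC1999 replicate 2 lay between the DMSO libraries and the other pair lay below both. The log2 fold change was -0.07 (95% interval -0.29 to 0.15, edgeR adjusted p = 0.641). IL2RB had 1736.5, 1499.9 and 1835.2 CPM in UNC1999 and 1757.6 and 1678.5 CPM in DMSO, so that the UNC1999 libraries fell on both sides of the DMSO ones. Its log2 fold change was -0.02 (95% interval -0.24 to 0.20, edgeR adjusted p = 0.892).

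IL2RG, the chain shared with other receptors, had 36.8, 30.5 and 31.6 CPM in UNC1999 and 35.1 and 35.4 CPM in DMSO. UNC1999 replicate 1 was above and the other pair below the DMSO libraries, with a log2 fold change of -0.10 (95% interval -0.35 to 0.16, edgeR adjusted p = 0.586). Per kilobase, IL2RB exceeded IL2RG 17.6, 18.3 and 21.6 times in the UNC1999 libraries and 18.7 and 17.7 times in DMSO. That ratio is uncertain. In GENCODE 29 a read-through gene on the same strand, AL590764.2, holds 66.1% of the 50-base stretches of the longest IL2RG transcript. Reads that fit more than 1 gene may have been left out of the IL2RG count. No deposited row carries the name AL590764.2, so whether the authors' annotation held this gene is not known. Within a library IL2RA made up 7.55%, 9.28% and 7.15% of the 3 chains' counts per kilobase in UNC1999 and 8.22% and 8.11% in DMSO. The difference of the means was -0.17 percentage points (exact permutation test, two-sided, p = 1; the smallest p that 10 splits allow is 0.1).

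JAK1 and JAK3, the kinases bound to the beta and gamma chains, differed in their spread between libraries. JAK1 had 165.9, 177.5 and 160.1 CPM in UNC1999 and 164.1 and 155.8 CPM in DMSO, with UNC1999 replicate 3 between the DMSO libraries. Its log2 fold change was 0.07 (95% interval -0.15 to 0.29, edgeR adjusted p = 0.662). JAK3 had 149.5, 110.7 and 179.0 CPM in UNC1999 and 105.7 and 121.6 CPM in DMSO. UNC1999 replicates 1 and 3 were above both DMSO libraries, and replicate 2 lay between them.

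JAK3 averaged 146.4 ± 34.2 CPM in UNC1999 and 113.7 ± 11.3 CPM in DMSO (SD, n = 3 and n = 2). On the log2 scale it was 0.36 ± 0.13 higher (SE, 95% interval 0.09 to 0.63), with an edgeR adjusted p of 0.0300. Without UNC1999 replicate 2 the value was 0.54 (edgeR adjusted p = 1.98e-05). Without UNC1999 replicate 3 it was 0.20 (edgeR adjusted p = 0.287), without DMSO replicate 1 it was 0.26 (edgeR adjusted p = 0.340) and without DMSO replicate 2 it was 0.47 (edgeR adjusted p = 0.0718), and in these 3 fits the call was lost. The DESeq2 Wald test did not call JAK3 either (0.39, DESeq2 adjusted p = 0.238). The ratio of JAK1 to JAK3 per kilobase ran from 0.963 to 1.72 in UNC1999 and from 1.38 to 1.67 in DMSO. JAK3 lies on chromosome 19 from 17824780 to 17848071, minus strand (GENCODE 29, GRCh38, while the authors' build was hg19), and JAK1 on chromosome 1.

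STAT5A and STAT5B are neighbouring paralogs on chromosome 17, from 42287547 to 42311943 on the plus strand and from 42199168 to 42276707 on the minus strand (GRCh38). STAT5A had 157.1, 140.2 and 166.9 CPM in UNC1999 and 155.7 and 161.6 CPM in DMSO, with UNC1999 libraries on both sides of the DMSO ones (log2 fold change -0.04, 95% interval -0.26 to 0.19, edgeR adjusted p = 0.831). STAT5B had 110.8, 115.9 and 109.6 CPM in UNC1999 and 135.8 and 125.8 CPM in DMSO. All 3 UNC1999 libraries were below both DMSO libraries, yet its log2 fold change of -0.22 (95% interval -0.44 to -0.0043) did not pass the adjustment over all genes (edgeR adjusted p = 0.106, and 0.0458 before adjustment). Without UNC1999 replicate 2 it did (-0.24, edgeR adjusted p = 0.0157), and without each other library it did not (edgeR adjusted p of 0.187 to 0.480). With offsets the value was 0.05, and 0.029 without UNC1999 replicate 2, neither called.

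The STAT5A share of the STAT5 counts was 58.6%, 54.7% and 60.4% in UNC1999 and 53.4% and 56.2% in DMSO. The means were 57.9 ± 2.88% and 54.8 ± 1.99% (SD, n = 3 and n = 2), a difference of 3.10 percentage points (exact permutation test, two-sided, p = 0.3, and 0.6 after Benjamini-Hochberg adjustment over this share and that of IL2RA). With 1 library left out the difference lay between 1.69 (without DMSO replicate 1) and 4.69 percentage points (without UNC1999 replicate 2). It was 1.88 without UNC1999 replicate 3. STAT5A and STAT5B differ in GC content (57.8% and 51.8%), and protein-coding genes in their GC classes had median log2 fold changes of -0.08 and -0.29. With offsets for GC content and transcript length the 2 genes had 0.0029 and 0.05. The part of GC content in this share was not tested. STAT5B holds 11.9% of the 50-base stretches of the longest STAT5A transcript, and STAT5A 10.0% of those of STAT5B. A read lying wholly within such a stretch has no unique gene, while a longer or paired read may have one.

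CISH, which encodes a cytokine-induced SH2 protein that binds the activated IL2 receptor, is a classical STAT5 target. STAT5 binds the motif TTCNNNGAA, which reads the same on both strands. The stretch of the CISH promoter with these motifs is shown because it is the only one of the 12 promoter windows found for these genes that holds any. It covers positions -250 to -91 before the start site, chr3:50611865-50612024, minus strand (RefSeq, GRCh38.p14), 5′ to 3′, with the motifs in capitals.
CISH: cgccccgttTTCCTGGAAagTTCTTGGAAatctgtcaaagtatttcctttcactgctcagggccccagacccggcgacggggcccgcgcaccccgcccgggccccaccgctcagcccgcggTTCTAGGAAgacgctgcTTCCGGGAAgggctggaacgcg

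The 4 motifs start at positions -241, -230, -129 and -112. Of 35116 RefSeq promoter windows of 300 bases, 7.66% held at least 1 such motif and 7 windows (0.0199%) held 4 or more. RefSeq windows were found for 8 of the 10 genes, and the windows of the other 7 of these held none. A match of letters is not evidence of binding, and its absence from a window of this length says only that these letters are not there. STAT5 binding was not measured in these data.

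CISH was the most abundant of the feedback genes. It had 521.0, 402.0 and 500.3 CPM in UNC1999 and 432.3 and 419.4 CPM in DMSO, with UNC1999 replicates 1 and 3 above both DMSO libraries and replicate 2 below both. CISH averaged 474.5 ± 63.6 CPM in UNC1999 and 425.9 ± 9.16 CPM in DMSO (SD, n = 3 and n = 2), and its log2 fold change was 0.16 (95% interval -0.07 to 0.39, edgeR adjusted p = 0.300). Without UNC1999 replicate 2 the value was 0.27 (edgeR adjusted p = 0.00153), and without UNC1999 replicate 1 it was 0.090 (edgeR adjusted p = 0.686). MAPKAPK3, a kinase gene on the opposite strand, overlaps 218 exon bases of CISH, and no strand setting was given.

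SOCS1, an inhibitor of Janus kinases, had the fewest counts of the 10. It had 49, 38 and 55 counts (5.53, 4.14 and 6.26 CPM) in UNC1999 and 43 and 49 counts (5.34 and 5.83 CPM) in DMSO. The groups overlapped, and the interval of its log2 fold change (-0.53 to 0.37 around -0.08, edgeR adjusted p = 0.824) was the widest of the 10. SOCS2, of the same family, had 33.2, 43.6 and 33.0 CPM in UNC1999 and 38.0 and 36.6 CPM in DMSO. UNC1999 replicate 2 was above both DMSO libraries and the other pair below both, opposite to CISH. Its log2 fold change was -0.03 (95% interval -0.29 to 0.24, edgeR adjusted p = 0.897). Per kilobase CISH exceeded SOCS2 27.0, 15.9 and 26.1 times in UNC1999 and 19.6 and 19.7 times in DMSO.

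**Figure D2:**
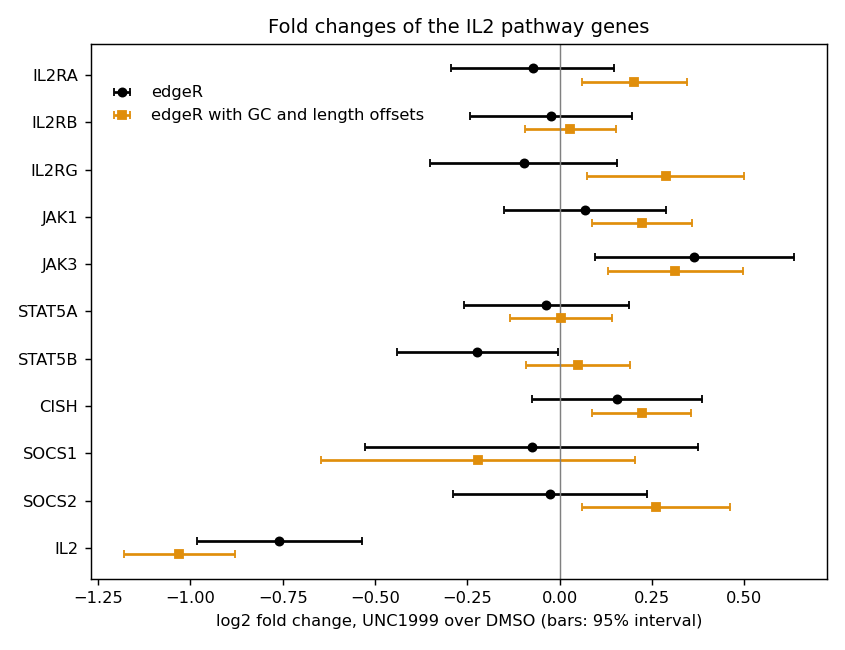
Log2 fold change of UNC1999 over DMSO with its 95% interval for the 10 pathway genes and IL2, from edgeR (black circles) and from edgeR with offsets for GC content and transcript length (orange squares). Without offsets only JAK3 (0.36) among the 10 was called, with offsets 6 of the 10 lie at 0.20 to 0.31 and were called, and IL2 is below 0 in both fits (-0.76 and -1.03).

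The ligand gene IL2 fell. None of its 3 receptor genes was called without offsets, while with offsets IL2RA (0.20) and IL2RG (0.29) were called higher. IL2 had 64.9, 73.3 and 64.3 CPM in UNC1999 and 109.5 and 119.0 CPM in DMSO, every UNC1999 library being below both DMSO libraries. It averaged 67.5 ± 5.0 CPM in UNC1999 and 114.3 ± 6.73 CPM in DMSO (SD, n = 3 and n = 2). On the log2 scale the difference was -0.76 ± 0.11 (SE, with an edgeR adjusted p of 1.80e-06), and IL2 was called lower in all 23 alternative settings run. The counts do not separate transcripts of the introduced IL2 gene from those of the cell's own copy. The other ligands of common gamma chain receptors were low: IL7 and IL21 were listed at 0, IL4 and IL9 had too few counts to test, and IL15 averaged 6.33 CPM in UNC1999 and 7.05 CPM in DMSO (log2 fold change -0.15, not called, and -0.57 with offsets for GC content and transcript length, edgeR adjusted p = 0.0207). Of 11 ligands and private receptor chains, 5 were tested, of which IL2 was lower, 0 were higher and 4 were not called, against 19.5% of all tested genes lower and 15.7% higher. The receptor genes IL4R, IL15RA and IL21R had log2 fold changes of 0.06, -0.12 and 0.26, none called (IL21R was called with offsets, at 0.32, edgeR adjusted p = 0.00602), and IL7R and IL9R were listed at 0.

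GC content moved with the fold changes of all genes, and most of the 10 genes lay somewhat above that curve. Among protein-coding genes split into 10 classes by transcript GC content, medians of the log2 fold change lay at 0.44 in the lowest class, -0.38 in the sixth and 0.17 in the highest. IL2RA, JAK1 and SOCS2 (46.2% to 47.3% GC) fell in the fifth class, whose median was -0.33, and their own values were -0.07, 0.07 and -0.03. IL2RG (50.9%) had -0.10 in a class with a median of -0.38. JAK3 (58.5%) had 0.36 and CISH (58.6%) 0.16 in a class with a median of 0.05. Of the 10, 9 lay above the median of their own class and SOCS1 below. For IL2RB, STAT5A, STAT5B and CISH the gap was 0.06, 0.05, 0.06 and 0.10, less than the SE of each fold change (0.11). IL2, with an annotated transcript of 33.3% GC, had -0.76 in a class with a median of 0.44. The GC content and length of the introduced IL2 gene's transcript were not given and may differ.

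**Figure D3:**
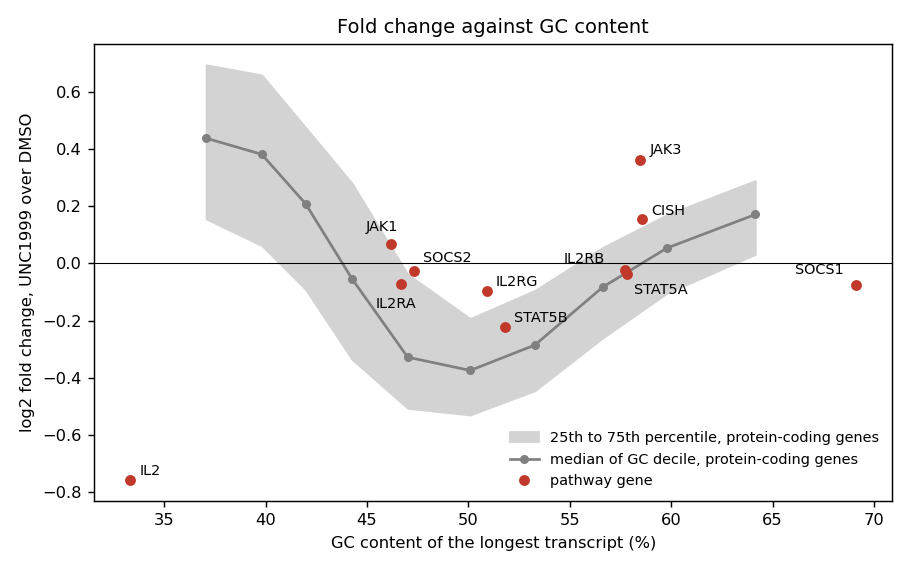
Log2 fold change of UNC1999 over DMSO against transcript GC content, with the 10 pathway genes and IL2 in red and the medians of 10 GC classes of protein-coding genes in grey (band, 25th to 75th percentile). IL2RA, JAK1, SOCS2 and IL2RG lie near 0 where the class medians are -0.33 and -0.38, and IL2 lies at -0.76 where the class median is 0.44.

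A fit with offsets that remove each library's smooth trend by GC content and transcript length called 6 of the 10 higher and 0 lower. Of the 11019 genes in that fit, 16.1% were called higher and 17.9% lower, together 34.0%. The 6 were IL2RA (0.20, edgeR adjusted p = 0.0239), IL2RG (0.29, edgeR adjusted p = 0.0310), JAK1 (0.22, edgeR adjusted p = 0.00872), JAK3 (0.31, edgeR adjusted p = 0.00639), CISH (0.22, edgeR adjusted p = 0.00785) and SOCS2 (0.26, edgeR adjusted p = 0.0384). IL2RB (0.03), STAT5A (0.0029), STAT5B (0.05) and SOCS1 (-0.22) were not called. The median of the 10 was 0.21, against 0.01 for all genes in that fit. These calls depended on the libraries: with offsets and 1 library left out, 1 to 5 of the 10 were called, 5 without UNC1999 replicate 2 (against 36.0% of all genes) and 1 without DMSO replicate 2 (against 24.6%). With offsets for GC content alone 3 were called (JAK1, JAK3 and CISH), against 31.9% of all genes. The sign of IL2RA, IL2RB, IL2RG, STAT5A, STAT5B and SOCS2 turned between the fits with and without offsets, so a direction given for any of them holds for the fit named beside it. IL2 was lower in both, at -1.03 with offsets (edgeR adjusted p = 2.16e-13), which used the GC content and length of its annotated transcript.

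The spread of the 10 genes within UNC1999 also moved with GC content. UNC1999 replicate 2 was the lowest of the 3 libraries for 6 genes (IL2RB, IL2RG, JAK3, STAT5A, CISH and SOCS1) and the highest for 4 (IL2RA, JAK1, STAT5B and SOCS2). Against the mean of replicates 1 and 3, its log2 CPM was -0.56 for JAK3, -0.48 for SOCS1, -0.34 for CISH, -0.25 for IL2RB and -0.21 for STAT5A, all with 57.7% GC or more. For IL2RA, JAK1, STAT5B and SOCS2, with 46.2% to 51.8% GC, it was 0.12, 0.12, 0.07 and 0.40. IL2RG, at 50.9% GC, had -0.16. Over protein-coding genes the same difference had a median of 0.16 in the fifth GC class, -0.24 in the ninth and -0.33 in the highest. The medians of DMSO replicate 2 minus replicate 1 also varied with GC content, at 0.080 in the lowest class, -0.061 in the sixth and 0.035 in the highest. The part of GC content in these differences and in the fold changes was not tested. Without UNC1999 replicate 2, 3 of the 10 were called, JAK3 and CISH higher and STAT5B lower, against 45.7% of the 12880 genes tested in that fit.

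**Figure D4:**
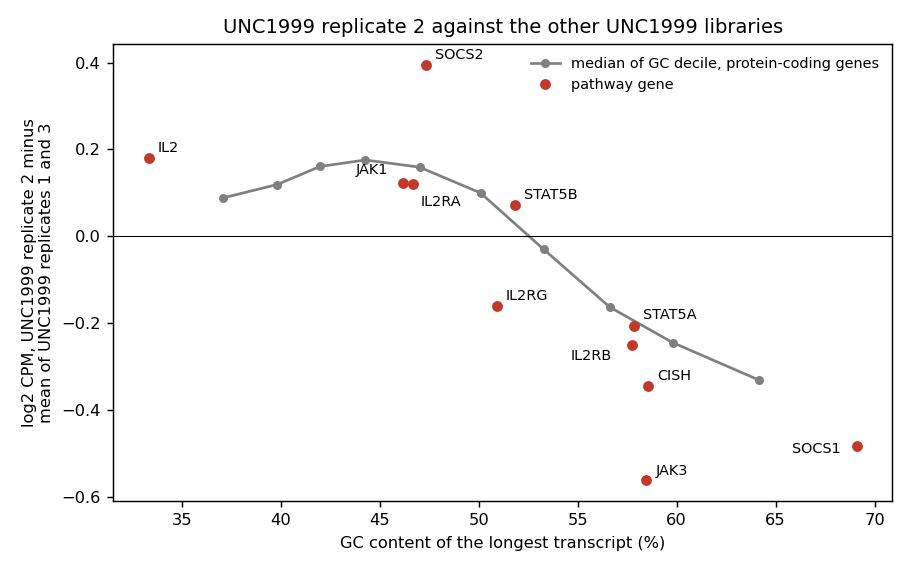
Difference in log2 CPM between UNC1999 replicate 2 and the mean of UNC1999 replicates 1 and 3, against transcript GC content, for the 10 pathway genes and IL2 (red) and as medians of 10 GC classes of protein-coding genes (grey). JAK3 (-0.56), SOCS1 (-0.48) and CISH (-0.34) lie below 0 at high GC content, and SOCS2 (0.40) above 0.

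Other Janus kinases and STATs were called in both directions. Of 7, 2 were higher and 1 lower, against 15.7% and 19.5% of all tested genes. JAK2, the kinase of many hormone and growth factor receptors, had 5.99, 5.56 and 6.03 CPM in UNC1999 and 2.48 and 3.69 CPM in DMSO (log2 fold change 0.92, edgeR adjusted p = 0.00333). These levels rest on few counts, 53, 51 and 53 in UNC1999 and 20 and 31 in DMSO. Every UNC1999 library was above both DMSO libraries, but the call did not survive the offsets (0.55, edgeR adjusted p = 0.0839) or the removal of DMSO replicate 1 (0.66, edgeR adjusted p = 0.123). STAT4, which carries the interleukin 12 signal, rose to 46.6 ± 3.58 CPM in UNC1999, against 34.1 ± 1.53 CPM in DMSO (SD, n = 3 and n = 2; log2 fold change 0.45, edgeR adjusted p = 0.00376; 0.50 with offsets, still called). Its call was lost without DMSO replicate 1 (0.40, edgeR adjusted p = 0.0889). STAT3, which carries signals of interleukins 6 and 21, fell to 169.0 ± 2.99 CPM in UNC1999, against 228.2 ± 10.5 CPM in DMSO (SD; log2 fold change -0.43, edgeR adjusted p = 0.00143). It was not called with offsets (-0.13, edgeR adjusted p = 0.115) or without DMSO replicate 1 (-0.39, edgeR adjusted p = 0.0636).

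Of 16 other brakes on JAK-STAT signalling, 14 were tested, 4 were higher and 2 lower, against 15.7% and 19.5% of all tested genes, and the median was 0.19. With offsets 2 were higher and 3 lower, against 16.1% and 17.9% of all genes, and the median was 0.02. SOCS4, a family member of CISH, had 43.8, 39.4 and 38.9 CPM in UNC1999 and 21.5 and 24.7 CPM in DMSO (log2 fold change 0.82, edgeR adjusted p = 7.45e-06; 0.35 with offsets, edgeR adjusted p = 0.00924, a call lost when offsets were combined with leaving out UNC1999 replicate 1 or DMSO replicate 1). PTPN1, a phosphatase of JAK2 and TYK2, had 192.0, 217.9 and 200.1 CPM in UNC1999 and 326.9 and 304.2 CPM in DMSO (log2 fold change -0.63, edgeR adjusted p = 1.68e-05; -0.29 with offsets, edgeR adjusted p = 0.000493). PTPRC (CD45), a membrane phosphatase of leukocytes, was 0.52 higher on the log2 scale (edgeR adjusted p = 0.000335). The value was 0.12 with offsets (edgeR adjusted p = 0.210) and 0.41 without DMSO replicate 1 (edgeR adjusted p = 0.0621), neither called.

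Genes known as STAT5 targets were called in both directions. Of 17, 15 were tested, 1 was higher and 3 were lower, against 15.7% and 19.5% of all tested genes, and 11 were not called, with a median of -0.08. With offsets 5 were higher and 3 lower, against 16.1% and 17.9% of all genes, with a median of 0.11. CDK6, a cyclin-dependent kinase of early G1 phase, had 218.6, 203.6 and 214.1 CPM in UNC1999 and 86.0 and 96.2 CPM in DMSO, with 1.22 on the log2 fold scale (edgeR adjusted p = 8.08e-10; 0.69 with offsets, edgeR adjusted p = 1.33e-09). MYC, a transcription factor of growth, had 79.4, 89.9 and 93.6 CPM in UNC1999 and 183.0 and 175.6 CPM in DMSO, with -1.03 on the log2 fold scale (edgeR adjusted p = 7.87e-09; -0.74 with offsets). In both genes the groups were well apart. CCND2, which encodes cyclin D2, fell to 608.5 ± 52.2 CPM in UNC1999, against 815.0 ± 26.2 CPM in DMSO (SD, n = 3 and n = 2; log2 fold change -0.42, edgeR adjusted p = 0.00205; -0.37 with offsets), and its call was lost without UNC1999 replicate 1 (-0.35, edgeR adjusted p = 0.0548) and without DMSO replicate 2 (-0.39, edgeR adjusted p = 0.0587).

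The RAS and phosphoinositide 3-kinase (PI3K) arms, which the same receptor also feeds, had more calls than any other of the related lists. Of 25 genes, 21 were tested, 10 were higher and 4 lower, against 15.7% and 19.5% of all tested genes, and the median was 0.27. With offsets 11 were higher and 1 lower, against 16.1% and 17.9% of all genes, and the median was 0.20. PIK3R1, the regulatory subunit gene of PI3K, had 78.7, 71.2 and 78.9 CPM in UNC1999 and 34.0 and 41.4 CPM in DMSO (log2 fold change 1.01, edgeR adjusted p = 9.00e-08; 0.63 with offsets). MAP2K1, a kinase gene downstream of RAS, had 118.7, 144.9 and 122.0 CPM in UNC1999 and 207.7 and 199.4 CPM in DMSO (log2 fold change -0.66, edgeR adjusted p = 1.41e-05; -0.29 with offsets). Both kept their call in the 23 alternatives. HRAS was listed at 0 in every library.

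**Figure D5:**
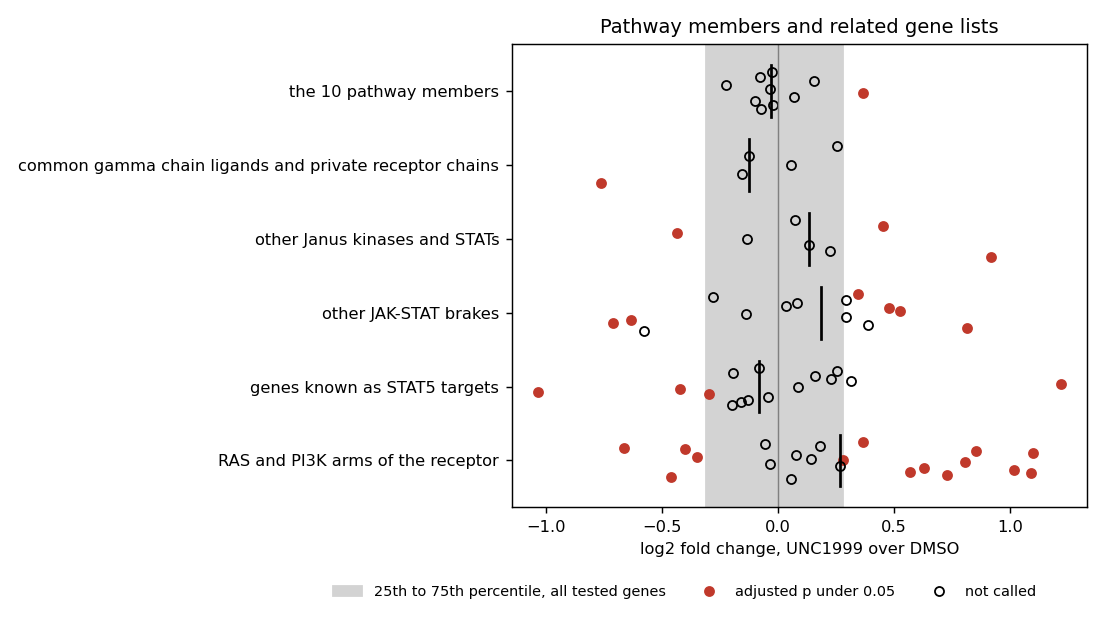
Log2 fold change of UNC1999 over DMSO for each tested gene of the 10 pathway members and 5 related lists, filled red where the edgeR adjusted p was under 0.05 and open otherwise, with black bars at the list medians. The grey band spans the 25th to 75th percentile of all tested genes; 1 of the 10 members and 10 higher and 4 lower genes of the RAS and PI3K arms were called.

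The genes whose pattern over the 5 libraries was most like that of IL2RA, JAK3 and CISH were found by the distance between log2 CPM profiles, each centred on its own mean, among 9311 genes. Near IL2RA were PPP2R5A (distance 0.0329) and ADO (0.0384), with log2 fold changes of -0.10 and -0.09. Nearest to JAK3 were DMPK (0.0880), TMUB1 (0.0946) and RP3-508I15.19 (0.106), with log2 fold changes of 0.29, 0.30 and 0.35, none of them called. Nearest to CISH were HCG4P5 (0.0203), SH3GLB2 (0.0333) and EML3 (0.0367), with log2 fold changes of 0.15, 0.16 and 0.19.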

How the data were processed

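The authors' deposited table holds raw counts, whole numbers with 1 row per gene symbol or other feature and 1 column per library, 5 in all. Per the labels' protocols, total RNA was taken up in Trizol and made into libraries with an NEB kit. The submitters' processing notes name, with no order or role, the programs edgeR 3.34.0, HTSeq 0.13.5, STAR 2.7.9 and fastp, and the build hg19. The annotation and strand setting were not given in the sources used. Columns were matched to samples by name. Genes kept by filterByExpr (13075) entered a quasi-likelihood F-test in edgeR 4.0.16 (R 4.3.3, TMM factors, Benjamini-Hochberg adjustment over all tested genes). SE is the size of the log2 fold change over the square root of F, and intervals use the total degrees of freedom. Transcript length and GC content come from the longest basic transcript of GENCODE 29 (GRCh38), found by symbol for 11019 tested genes. Offsets were spline fits of GC content (6 degrees of freedom) and log2 length (4) to how far a library deviated from the mean over libraries. Members and lists were chosen with earlier results of these data known.

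From each related list the text names the 3 called genes with the smallest p, or the first pair and the best gene of the opposite direction where all went one way. A few genes that these rules select are not reported here. Other list genes that are named were chosen after their values were seen. Alternatives were other scaling (DESeq2 1.42.0 size factors, upper-quartile factors, none), other filters (none, or a mean count of 50 with 1 CPM in 2 libraries), robust dispersion, a replicate block, the offsets, the DESeq2 Wald test, limma-voom (limma 3.58.1), a threshold of 0.01, and leaving out each library. On simulated counts for 13075 genes, the edgeR fit recovered 88% of 2-fold and 62% of 1.5-fold changes. Of its calls, 5.06% were false. Only 200 genes were changed in that simulation, while 35.2% of the tested genes were called in the real data, so these figures need not hold there. Changes below 1.5-fold, such as the 1.29-fold of JAK3, were not simulated. A gene with no count may still hold up to 0.327 to 0.372 CPM, the worth of 3 counts, for counting error only.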

Additional observations from a re-analysis of the deposited data

How the results depend on the processing

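IL2, CDK6, MYC, PTPN1, PIK3R1 and MAP2K1 kept their direction and call in every alternative run. JAK1, JAK3 and CISH kept their direction but not their side of the threshold, and the other 7 pathway genes turned sign in at least 1 alternative. Of the 10, 1 was called, against 0 with the replicate block (30.8% of all genes called), the DESeq2 Wald test (27.7%) and a threshold of 0.01 (24.6%). With the block and offsets together 3 were called (27.7%), with offsets 6 (34.0%) and with GC offsets only 3 (31.9%). Fits that left out 1 UNC1999 library, with and without offsets, called 0 to 5 of the 10, against 26.9% to 45.7% of all genes. Over all genes, 4603 were called, 3053 with block and offsets and 2525 to 5892 with 1 library left out. The stricter filter left no value for SOCS1 and JAK2. The GC-only offsets, and offsets refitted without each library, were chosen after seeing the data. Log2 fold changes that turned sign are given by setting, and the cause was not tested. Without normalization factors, IL2RA had 0.032, IL2RB 0.079, IL2RG 0.0062, STAT5A 0.066, SOCS1 0.027 and SOCS2 0.080. With upper-quartile factors IL2RB had 0.046, STAT5A 0.033 and SOCS2 0.044, and with the stricter filter IL2RB had 0.015, STAT5A 0.0026 and SOCS2 0.017. With offsets IL2RA had 0.20, IL2RB 0.029, IL2RG 0.29, STAT5A 0.0029, STAT5B 0.049 and SOCS2 0.26, and with GC offsets only these 6 had 0.15, 0.045, 0.23, 0.029, 0.092 and 0.23. With 1 library left out, with and without offsets, IL2RA spanned -0.12 to 0.23, IL2RB -0.085 to 0.067, IL2RG -0.18 to 0.38, STAT5A -0.093 to 0.062, STAT5B -0.28 to 0.059, SOCS1 -0.29 to 0.088 and SOCS2 -0.16 to 0.30. The difference in the IL2RA share spanned -0.82 to 0.25 percentage points, turning sign without UNC1999 replicate 1 or 3.

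The labels do not tie replicate numbers to a shared culture or day. Deviations from the group means correlated over genes at 0.07 and 0.04 in the 2 same-numbered pairs. With only 2 DMSO libraries their deviations mirror each other, so the swapped pairs gave -0.07 and -0.04. These correlations therefore cannot tell whether same-numbered libraries share a culture or day. The replicate block, which leaves out UNC1999 replicate 3 from the contrast, called 4022 genes, and JAK3 (0.18, edgeR adjusted p = 0.310) was not called. With the block SOCS2 had 0.034, and with block and offsets IL2RA had 0.19, IL2RG 0.29, STAT5B 0.058 and SOCS2 0.30. SOCS1, with 38 to 55 counts in UNC1999 and 43 to 49 in DMSO, had the fewest counts of the 10 and the widest interval.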
